A study of Homo sapiens with 12 samples.

Results

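The human genome holds a small set of genes that stretch over more than 500 kb, most of it intron. The 309 genes described here were all protein-coding genes of the GENCODE annotation on chromosomes 1 to 22 that are longer than this limit, out of 19229 protein-coding genes on these chromosomes. NCAM2, which also passes the limit, was left out. The 309 genes lay on 21 chromosomes, none of them on chromosome 19. They had a median length of 722 kb, 67 of them were over 1 Mb long, and the longest was RBFOX1 with 2474 kb. Together they covered 256 Mb, or 9.52% of the 2685 Mb of sequenced autosomal bases. The GENCODE annotation as mapped to GRCh37 was used, the same build as the hg19 coordinates of the peak lists. Only 8 genes in 4 pairs overlapped another of the 309, and peaks were counted once in the sums inside the genes, at starts and at ends. In the counts along the gene and of motif direction, a peak shared by a pair counted for both genes.

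Genes just inside and just outside the limit of 500 kb held similar numbers of peaks. The shortest genes inside it were ANO5 (500909 bp), SPOCK3 (501413 bp) and KCNAB1 (501438 bp), with 2, 1 and 4 wild-type SMC1 peaks. The longest genes outside it were DIAPH3 (498346 bp), ITPR2 (497843 bp) and CACNA2D1 (497513 bp), with 1, 3 and 2.

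Chromatin immunoprecipitation followed by sequencing (ChIP-seq) was done in HAP1, a near-haploid human leukaemia line that carries an impaired p53. Wild-type cells were compared with cells of the clone WaplKO_3.3, in which the WAPL gene is broken by a blasticidin cassette (ΔWAPL), with cells in which SCC4 is broken by a puromycin cassette (ΔSCC4), and with ΔWAPL/ΔSCC4 cells, made by knocking out SCC4 in ΔWAPL cells and called the double mutant below. In each genotype chromatin was precipitated with antibodies against SMC1 and CTCF and with IgG. Each of these groups was 1 library of 1 line, so no test between genotypes was possible, and a difference between clones cannot be told apart from the effect of a deletion. The intervals given below are 95% intervals for counting error only (exact Poisson for a density, Wilson for a share or a ratio of counts). The deleted genes themselves could not be checked from peak lists, and gene expression was not measured by these libraries.

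SMC1 is a core subunit of cohesin, the ring-shaped complex that holds and loops DNA. SCC4 is part of the complex that loads cohesin, WAPL releases it, and the ring is often held at sites where the zinc-finger protein CTCF binds its motif in one orientation. Very long genes take many hours to transcribe. Many of them encode adhesion proteins, receptors and channels of neurons and lie in AT-rich, gene-poor chromatin, and several span common fragile sites, which break when replication is slowed.

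Where 4 values follow each other they are in the order wild-type, ΔWAPL, ΔSCC4 and double mutant. The SMC1 lists held 18542, 33952, 12779 and 26558 peaks in all. The study reports a larger rise in ΔWAPL and a larger fall in ΔSCC4 cells than these totals give. Recovered depth was 6.79 to 8.41 reads per kb in the SMC1 lists and 6.53 to 8.41 in the CTCF lists. Within the 309 genes the IgG lists held only 3 peaks in wild-type cells, 2 in ΔWAPL, 2 in ΔSCC4 cells and 3 in the double mutant, and none at a gene start.

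To show what the sites look like, the strongest peak of each of 6 classes was read from the hg19 genome. A peak was named only if it overlapped no IgG peak. The 19 bases in capitals are the stretch within 50 bp of the summit that scored highest against a CTCF matrix learned from wild-type CTCF peaks, whose consensus was CGGCCACCAGGGGGCGCCG, printed in the direction of the motif.
THSD4 intron, SMC1 in all 4 genotypes, chr15:71407690-71407748, plus strand: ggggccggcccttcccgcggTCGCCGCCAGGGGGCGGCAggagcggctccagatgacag
DENND1A intron, SMC1 and CTCF in ΔWAPL and no SMC1 in wild-type cells, chr9:126162225-126162283, minus strand: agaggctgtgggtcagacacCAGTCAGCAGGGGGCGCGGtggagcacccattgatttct
NRXN3 intron, SMC1 without CTCF in ΔWAPL and no SMC1 in wild-type cells, chr14:80097745-80097803, minus strand: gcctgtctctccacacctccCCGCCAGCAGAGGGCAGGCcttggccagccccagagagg
DCDC1 intron, SMC1 in wild-type and not ΔSCC4, chr11:30935878-30935936, minus strand: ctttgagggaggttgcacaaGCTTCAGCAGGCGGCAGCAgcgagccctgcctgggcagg
ASIC2 intron, CTCF in all 4 genotypes and SMC1 in none, chr17:32078304-32078362, minus strand: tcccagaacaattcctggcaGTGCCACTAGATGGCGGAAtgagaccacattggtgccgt
RYR2 start, SMC1 in ΔWAPL and not wild-type, chr1:237205311-237205369, plus strand: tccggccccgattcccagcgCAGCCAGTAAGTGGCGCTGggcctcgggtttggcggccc
A score of 11.1 was needed for a match. THSD4 scored 23.6, NRXN3 20.0, ASIC2 18.2, DENND1A 18.0 and RYR2 15.2. The DCDC1 stretch scored 9.39 and is not a match.

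The classes were set by where SMC1 and CTCF were called, so the pattern of calls at these 6 sites is a description. At the THSD4 site, 18.4 kb after the start of this extracellular matrix gene, SMC1 fold enrichment over local background was 13.7 in wild-type cells, 13 in ΔWAPL, 12.6 in ΔSCC4 cells and 13.5 in the double mutant, and CTCF lay between 18.8 and 19.3. At DENND1A, which encodes a Rab exchange factor, CTCF was called in all 4 genotypes at 8.41- to 9.69-fold, whereas SMC1 was called only in ΔWAPL (9.16) and the double mutant (6.17). The intronic site of DCDC1 kept CTCF at 10.3-fold in ΔSCC4 cells, had SMC1 at 9.77-fold in wild-type cells, 14.9-fold in ΔWAPL and 8.86-fold in the double mutant, and had no SMC1 peak in ΔSCC4 cells. The ASIC2 site, in a gene for an acid-sensing sodium channel, carried CTCF at 21.7- to 27.1-fold in every genotype and SMC1 in none. The NRXN3 site lacked a CTCF peak in wild-type, ΔWAPL and ΔSCC4 cells, although it held the second-highest motif score of the 6, and it had one in the double mutant at 5.86-fold. SMC1 there was 9.22-fold in ΔWAPL and 4.72-fold in the double mutant.

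How densely cohesin sits within these genes was compared first, from 5 kb after the start to 5 kb before the end, 253 Mb in all. SMC1 peaks inside the genes numbered 901 in wild-type cells, 1620 in ΔWAPL, 593 in ΔSCC4 cells and 1454 in the double mutant. This was 3.57 peaks per Mb in wild-type cells (3.34 to 3.81), 6.41 in ΔWAPL (6.10 to 6.73), 2.35 in ΔSCC4 cells (2.16 to 2.54) and 5.76 in the double mutant (5.46 to 6.06). In each genotype the very long genes were poorer in cohesin sites than the other autosomal sequence, which held 6.91, 12.7, 4.77 and 9.80 SMC1 peaks per Mb in the same order. The density inside was 0.516 times that of the rest in wild-type cells (0.483 to 0.552), 0.507 times in ΔWAPL cells (0.482 to 0.533), 0.492 times in ΔSCC4 (0.453 to 0.534) and 0.587 times in the double mutant (0.557 to 0.619). The interval of the double mutant lay above those of the other 3 genotypes, but it overlapped that of another genotype at −log10 q of at least 10, at a fold enrichment of at least 5 and in lists of equal length.

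**Figure D1:**
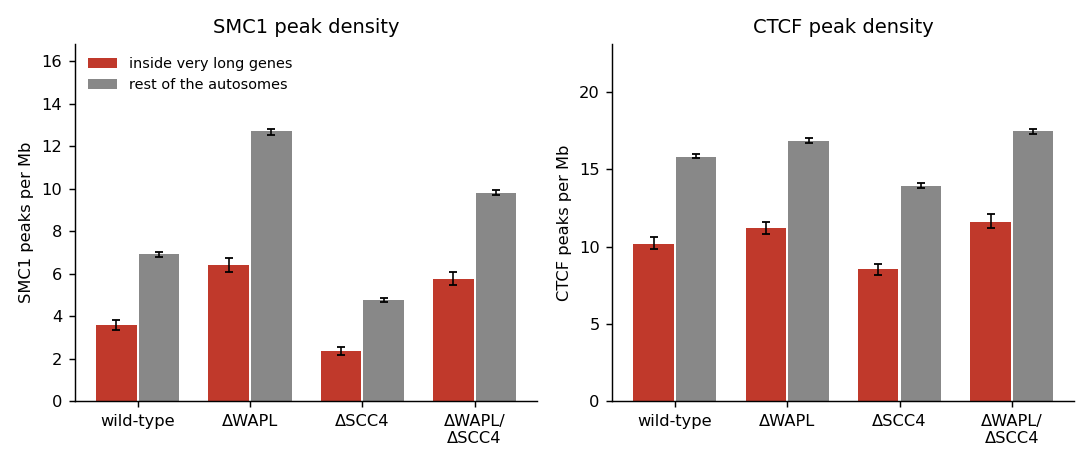
Peaks per Mb of SMC1 (left) and CTCF (right) inside the 309 very long genes (red) and in the rest of the autosomes (grey) in the 4 genotypes, 1 library per bar, with 95% Poisson intervals as error bars. SMC1 runs from 2.35 peaks per Mb in ΔSCC4 to 6.41 in ΔWAPL cells inside the genes, and each red bar is lower than the grey bar beside it.

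Deletion of WAPL went with 1.80 times as many SMC1 peaks inside the genes (1.66 to 1.95), close to the 1.83 times of the rest of the autosomes (1.80 to 1.87). Deletion of SCC4 in wild-type cells went with 0.658 times as many (0.593 to 0.730), against 0.690 (0.674 to 0.707). In total peak number, the 2 steps that end in the double mutant differed from the rest by more than counting error. From ΔSCC4 to the double mutant the number was 2.45 times as high inside the genes (2.23 to 2.70) and 2.05 times in the rest. From ΔWAPL to the double mutant it was 0.898 times inside (0.836 to 0.963) and 0.775 times in the rest (0.762 to 0.788). The double mutant thus had 1.61 times the wild-type number of cohesin sites in very long genes (1.49 to 1.75) and 1.42 times in the rest (1.39 to 1.45). For the step from ΔWAPL, peaks with and without CTCF were also counted apart. With CTCF the ratio was 0.950 inside (0.883 to 1.02) and 0.891 in the rest. Without CTCF it was 0.319 (0.226 to 0.448) and 0.273. Each interval inside held the ratio of the rest.

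The double mutant library was the shallowest SMC1 library. Pileups were then scaled to equal depth, and only peaks above a fixed limit on the recomputed p-value were kept. The SMC1 number of the double mutant inside the genes was then 0.981 times that of ΔWAPL (0.907 to 1.06). With each list reduced to the same number of strongest peaks, which removes any difference in total number, the ratio was 0.952 for ΔWAPL and 1.02 for ΔSCC4 against wild-type, and 1.17 for the double mutant against ΔWAPL, so the sizes given above describe the whole lists.

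Most cohesin sites lay at CTCF sites. Inside the genes 876 of 901 SMC1 peaks overlapped a CTCF peak in wild-type cells (97.2%, 95.9 to 98.1), 1485 of 1620 in ΔWAPL cells (91.7%, 90.2 to 92.9), 577 of 593 in ΔSCC4 (97.3%, 95.7 to 98.3) and 1411 of 1454 in the double mutant (97.0%, 96.0 to 97.8). In the rest of the autosomes these shares were 94.5%, 81.2%, 95.2% and 93.4%. SMC1 peaks without CTCF numbered 25, 135, 16 and 43 inside the genes. That was 5.40 times as many in ΔWAPL as in wild-type cells (3.54 to 8.25), and 0.319 times as many in the double mutant as in ΔWAPL (0.226 to 0.448). In the rest of the autosomes these ratios were similar, at 6.25 (5.83 to 6.70) and 0.273 (0.258 to 0.289). Inside the genes the excess in ΔWAPL was not seen in lists of equal length. The share at CTCF was there 98.1% in wild-type cells and 98.4% in ΔWAPL. At −log10 q of at least 10 these shares were 99.2% and 96.8%. At a fold enrichment of at least 5 they were 98.5% and 96.0%, so the excess was seen at both cuts. SMC1 peaks with CTCF were 1.70 times as many in ΔWAPL as in wild-type cells (1.56 to 1.84, against 1.57 in the rest). Between ΔWAPL and the double mutant their ratio was 0.950 (0.883 to 1.02). This interval held both 1 and the ratio of the rest, 0.891 (0.875 to 0.907).

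Of the SMC1 peaks without CTCF in ΔWAPL cells, 73 of 135 (54.1%, 45.7 to 62.3) lay within 1 kb of the start of some transcript, of the long gene or of a gene within it. Of those with CTCF, 122 of 1485 did (8.22%, 6.92 to 9.72). The share of peaks without CTCF was similar in wild-type cells (14 of 25, 56.0%) and the double mutant (23 of 43, 53.5%). In ΔSCC4 it was 7 of 16 (43.8%, 23.1 to 66.8). Exons took 1.14% of the bases counted and held 30 of the 135 CTCF-free peaks (22.2%), against 52 of the 1485 (3.50%).

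CTCF itself differed less between genotypes. Its peaks inside the genes numbered 2580 in wild-type cells, 2824 in ΔWAPL, 2155 in ΔSCC4 cells and 2941 in the double mutant, which is 10.2, 11.2, 8.53 and 11.6 per Mb, or 0.613 to 0.666 times the density of the rest. Against wild-type there were 1.09 times as many in ΔWAPL (1.04 to 1.15) and 0.835 times as many in ΔSCC4 cells (0.789 to 0.884). Scaled to equal depth with the p-value limit described above, the first of these was 1.04 (0.978 to 1.10). The ratio was 1.36 from ΔSCC4 to the double mutant (1.29 to 1.44) and 1.04 from ΔWAPL to the double mutant (0.989 to 1.10). CTCF sites were occupied by cohesin to very different degrees. An SMC1 peak overlapped 33.9% of the CTCF peaks inside the genes in wild-type cells (32.1 to 35.8), 52.8% in ΔWAPL (51.0 to 54.7), 26.8% in ΔSCC4 cells (24.9 to 28.7) and 48.1% in the double mutant (46.3 to 49.9). Each share was lower than that of the rest, where it was 41.2%, 61.4%, 32.6% and 52.4%.

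The sequence of the genes holds fewer CTCF motifs. Matches to the 19-base matrix, on either strand, occurred 45.3 times per Mb inside the genes and 75.0 times per Mb in the rest. A somewhat lower share of the matches lay in a CTCF peak, 15.3% (14.7 to 16) against 16.8% (16.6 to 16.9) in wild-type cells and 13.4% against 15.3% in ΔSCC4. The share in an SMC1 peak was 6.65% in wild-type cells, 11.1% in ΔWAPL, 4.59% in ΔSCC4 cells and 10.3% in the double mutant, against 8.46%, 14.1%, 6.01% and 11.7% in the rest. A match is only a likeness of letters and says nothing of binding.

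Merged across genotypes, the SMC1 peaks inside the genes formed 1888 regions. All 4 lists held 476 of them (25.2%, against 28.4% in the rest). ΔWAPL and the double mutant alone shared 351 (18.6%, against 15.8%), and 335 were missing only in ΔSCC4 cells (17.7%, against 14%). The 346 regions found only in ΔWAPL cells were a smaller share than elsewhere (18.3%, against 24.7%), and the 192 found only in the double mutant a larger one (10.2%, against 6.67%). At the 476 common regions the depth-scaled SMC1 pileup was a median of 1.55 times wild-type in ΔWAPL cells, 0.856 times in ΔSCC4 and 1.39 times in the double mutant, against 1.69, 0.814 and 1.30 in the rest. For CTCF, 1963 of 3401 regions were in all 4 lists (57.7%, against 64.8%). There its pileup was 0.839, 0.797 and 0.903 times wild-type in ΔWAPL, ΔSCC4 and the double mutant, against 0.813, 0.801 and 0.912 in the rest. Another 233 CTCF regions were found only in the ΔWAPL line and the double mutant line derived from it (6.85%, against 4.97%). Only wild-type and ΔSCC4 cells held 19 (0.559%, against 0.465%).

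Density was lower in longer genes. In wild-type cells genes of 10 to 50 kb held 9.22 SMC1 peaks per Mb, genes of 50 to 200 kb 6.54, genes of 200 to 500 kb 5.31, genes of 500 to 1000 kb 4.17 and genes over 1000 kb 2.50. GC content ran the same way, from 45.2% to 37.8%, and its part in the density was not tested. ΔWAPL cells had 1.74, 1.70, 1.64, 1.68 and 2.13 times the wild-type number in these classes. From ΔWAPL to the double mutant the ratios were 0.707, 0.789, 0.896, 0.906 and 0.879, so genes of 200 kb and more stood together in this step.

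Single genes were compared next. ΔWAPL cells had more SMC1 peaks than wild-type inside 261 of the 298 genes with at least 1 peak in either list (87.6%). Over all protein-coding genes this share was 56.7%, and among those of 200 to 500 kb it was 65.2%. Only MARCHF1, ZBTB20 and DOCK3 had fewer, each by 1 peak. ΔSCC4 cells had fewer than wild-type inside 176 of 280 genes (62.9%, against 49.3% of all genes) and more inside 24. The double mutant had more than ΔSCC4 inside 264 of 289 (91.3%, against 66.3%). Compared with ΔWAPL it had fewer inside 151 of 300 (50.3%, against 37.3%) and more inside 64.

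CTCF peaks were more numerous in ΔWAPL than in wild-type cells in 151 of 309 genes (48.9%, against 19.8% of all genes) and fewer in 65. In ΔSCC4 cells they were fewer than in wild-type in 209 of 307 (68.1%, against 29.2%) and more numerous in 27. The double mutant had more CTCF peaks than ΔSCC4 in 251 of 309 genes (81.2%, against 37.9%) and fewer in 9. Compared with ΔWAPL it had more in 133 genes and fewer in 86 of 309 (27.8%, against 13.3%).

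Counts of this kind depend on how many peaks a gene holds, and very long genes hold more than short ones. For the counts above that stand without a share, the share over all protein-coding genes was not computed. A difference of at least 2-fold was counted among genes with at least 5 peaks in either list, and its share is set beside that of all such protein-coding genes, the very long ones included. It was seen upwards from wild-type to ΔWAPL in 74 of 165 very long genes (44.8%, against 45.7%) and downwards to ΔSCC4 in 22 of 63 (34.9%, against 37.4%). From ΔSCC4 to the double mutant it was seen in 101 of 139 (72.7%, against 71.3%), and downwards from ΔWAPL to the double mutant in 9 of 179 (5.03%, against 7.93%). For CTCF the same calls were 5 of 269 (1.86%, against 1.63%), 13 of 255 (5.10%, against 5.41%), 35 of 266 (13.2%, against 11%) and 1 of 271 (0.369%, against 0.278%).

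**Figure D2:**
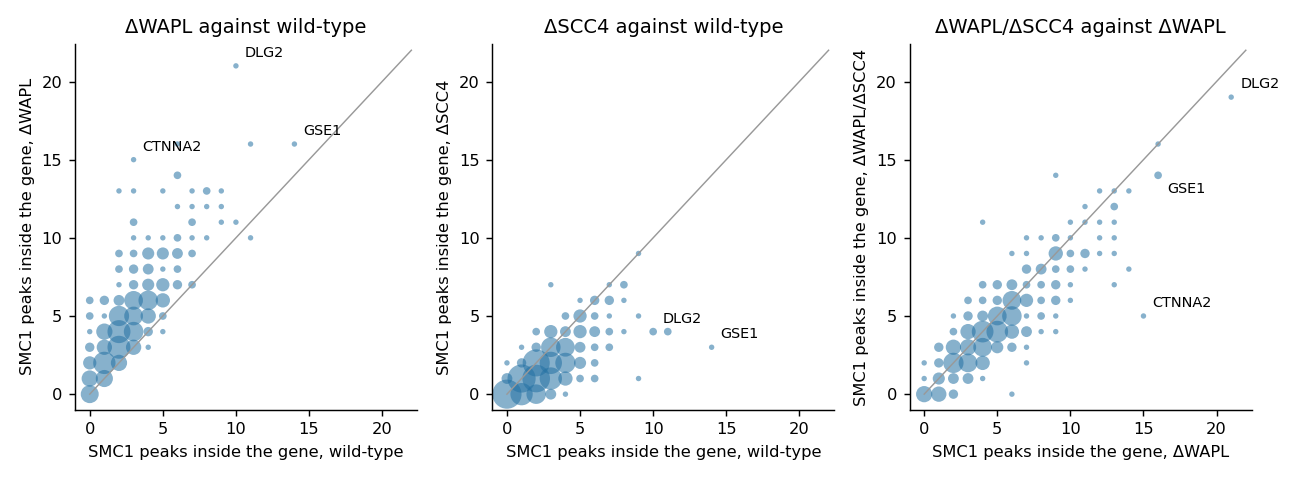
SMC1 peaks inside each of the 309 genes, ΔWAPL against wild-type (left), ΔSCC4 against wild-type (middle) and ΔWAPL/ΔSCC4 against ΔWAPL (right), with the area of a point proportional to the number of genes at that pair of counts and a line at equal numbers. Only 3 genes lie under the line in the left panel, whereas 176 do in the middle panel and 151 in the right one.

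A typical gene held few sites. The median number of SMC1 peaks per gene was 3 in wild-type cells, 5 in ΔWAPL, 2 in ΔSCC4 cells and 4 in the double mutant. No SMC1 peak lay inside 34 of the 309 genes in wild-type cells, 11 in ΔWAPL, 64 in ΔSCC4 cells and 21 in the double mutant. The median distance between neighbouring SMC1 summits of a gene was 114 kb, 60 kb, 151 kb and 76 kb in the same order. A stretch of 500 kb or more without SMC1 was found in 129, 74, 173 and 77 genes, and one without CTCF in 26, 23, 44 and 17.

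The 10 longest genes show the range. RBFOX1, a splicing regulator (chr16:5289803-7763342, plus strand), had 2 SMC1 peaks inside in wild-type cells, 7 in ΔWAPL, 0 in ΔSCC4 cells and 2 in the double mutant, on 15, 16, 9 and 14 CTCF peaks. Its longest stretch without an SMC1 summit was 2097 kb in wild-type cells and 2474 kb in ΔSCC4 cells. The 2 wild-type sites, 251 and 377 kb after the start, had SMC1 at 4.60- and 6.83-fold and kept CTCF at 12.9- and 12.5-fold in ΔSCC4 cells, where SMC1 was not called. CNTNAP2, a neurexin-like adhesion protein, had 9, 12, 5 and 13 SMC1 peaks. PTPRD, a receptor tyrosine phosphatase of synapses, had 6, 16, 6 and 16.

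Among the other long ones, the synaptic scaffold gene DLG2 (chr11:83166055-85339379, minus strand) had 10, 21, 4 and 19, the highest number of the 309 in both ΔWAPL and the double mutant. CSMD1, a membrane protein with complement-control domains, had 2, 13, 2 and 7, and the ADP-ribosylhydrolase gene MACROD2 had 4, 10, 2 and 6. EYS, which acts in photoreceptors, had 4, 6, 5 and 9. The receptor gene LRP1B had 2, 8, 1 and 8, the catenin gene CTNNA3 had 4, 9, 4 and 9, and PCDH15, a cadherin of inner ear hair cells, had 3, 7, 2 and 6. All 10 had more SMC1 peaks in ΔWAPL than in wild-type cells, and 9 of the 10 had more in the double mutant than in wild-type. RBFOX1 had 2 in both.

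The largest difference between ΔWAPL and wild-type cells was that of CTNNA2 (chr2:79412357-80875986, plus strand), the neuronal alpha-catenin that ties cadherins to actin, with 3 SMC1 peaks in wild-type cells, 15 in ΔWAPL, 4 in ΔSCC4 cells and 5 in the double mutant. Its CTCF peaks numbered 14, 20, 15 and 19. Of its 15 SMC1 sites, 12 had CTCF in all 4 genotypes and 1 had CTCF in none. The site 34.4 kb after the start carried CTCF at 17.4- to 22.2-fold in every genotype and SMC1 only in ΔWAPL cells (6.69-fold). The site at 670.4 kb had CTCF only in ΔWAPL (17.9) and the double mutant (11.6), and SMC1 only in the same lines (8.01 and 4.96). Next in rank, DLG2 had 11 more SMC1 peaks in ΔWAPL than in wild-type cells, CSMD1 had 11 more, and PTPRD had 10 more.

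Further genes were named by this rule. The presynaptic neurexin gene NRXN3 had 3, 13, 3 and 12 SMC1 peaks, and ROBO2, an axon guidance receptor, had 3, 11, 7 and 11. ZFHX3, a homeobox transcription factor, had 3, 11, 4 and 9. A gene known only as ENSG00000285708, which overlaps FOXP1, had 6, 14, 1 and 8.

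The gene with the largest difference in the other direction was GSE1 (chr16:85203131-85709810, plus strand), a coiled-coil protein of corepressor complexes. It was also the gene with the densest CTCF of the 309 in every genotype, and with the densest SMC1 in all but ΔSCC4 cells, where THSD4 was denser. SMC1 peaks inside it numbered 14 in wild-type cells, 16 in ΔWAPL, 3 in ΔSCC4 cells and 14 in the double mutant, and CTCF peaks 22, 23, 20 and 23. At 134 kb from its start SMC1 was 7.47-fold in wild-type cells, 11.7-fold in ΔWAPL and 8.65-fold in the double mutant and was not called in ΔSCC4 cells, where CTCF was 23.1-fold. The site at 251 kb was called in all 4, with 13.7, 15.9, 8.36 and 14.2. At 311 kb CTCF (14 and 11.3) and SMC1 (7.71 and 5.21) were called in wild-type and ΔSCC4 cells, and neither was in the ΔWAPL line or the line made from it. CTCF was called in all 4 genotypes at 17 of the 20 SMC1 sites of GSE1. A motif match on the gene's own strand lay at 14 of them and on the opposite strand at 4.

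**Figure D3:**
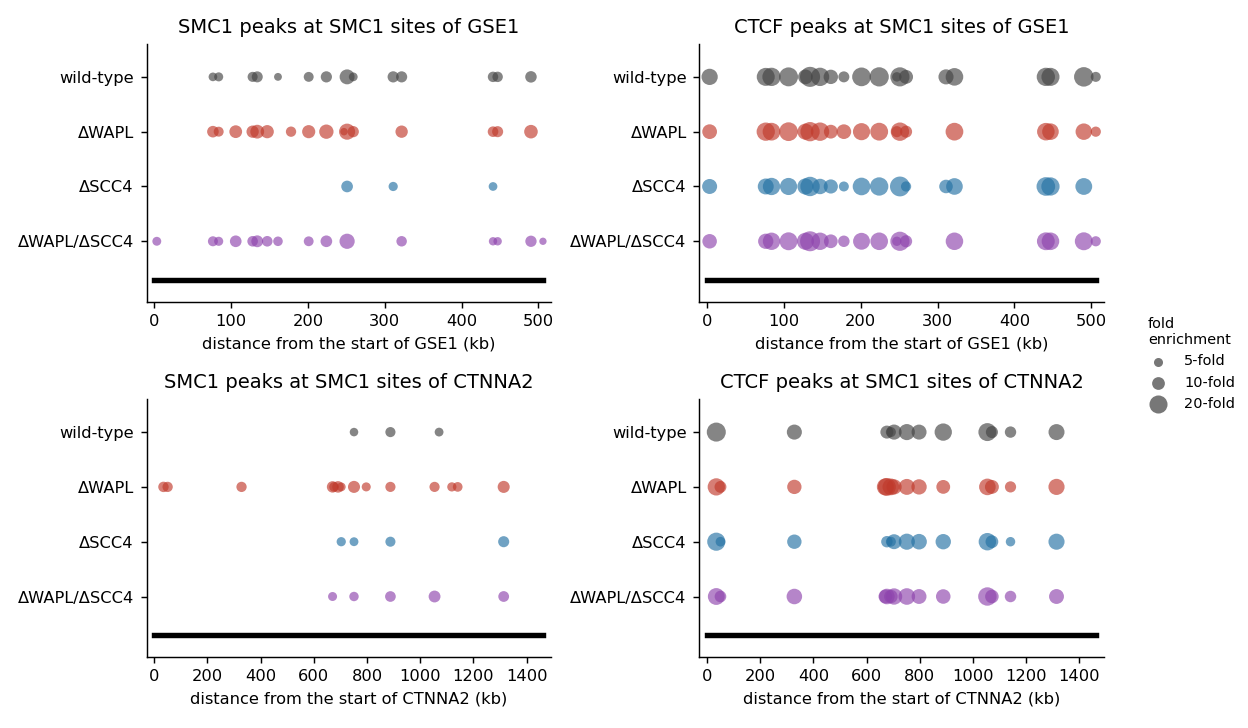
SMC1 sites of GSE1 (top) and CTNNA2 (bottom) by distance from the gene start in kb, in 1 row per genotype, for SMC1 (left) and for CTCF at the same sites (right), with the area of a point proportional to fold enrichment and the black bar showing the gene. In ΔSCC4 cells SMC1 is left at 3 sites inside GSE1 while CTCF stays at nearly every site, and in CTNNA2 most SMC1 points are in the ΔWAPL row.

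The rest of the 5 largest differences between wild-type and ΔSCC4 cells followed GSE1. CACNA2D3, an auxiliary subunit of calcium channels, had 9 SMC1 peaks in wild-type cells, 11 in ΔWAPL, 1 in ΔSCC4 cells and 12 in the double mutant. KAZN, a protein of cell junctions, had 11, 16, 4 and 14. ZBTB20, a zinc-finger repressor, had 11, 10, 4 and 8, and DLG2 is given above.

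CTCF density varied widely between genes. The densest after GSE1, which had 44.3 CTCF peaks per Mb as the mean of the 4 genotypes, were THSD4 (28.1), the transcription factor gene GLIS3 (26.7), the synapsin gene SYN3 (25.4) and SLIT3, a guidance ligand (24.2). In these 4 SMC1 peaks numbered 9, 13, 9 and 13 in THSD4, 6, 8, 5 and 8 in GLIS3, 7, 9, 6 and 9 in SYN3 and 7, 9, 4 and 8 in SLIT3. THSD4 lies where the recovered background at wild-type CTCF peaks was 3.64 times the lowest of that list, and the part of a raised copy number was not tested. Leaving out chromosomes 9, 15, 19 and 22, which hold THSD4, GLIS3 and SYN3, kept each summed value within its interval. At the other end were the cadherin gene CDH18 (0.685), the glycosyltransferase gene GALNT17 (0.875), TMEM132D (1.22), the receptor phosphatase gene PTPRT (1.35) and the netrin receptor gene UNC5D (1.36). Across these 5 the only SMC1 peak inside a gene was 1 in PTPRT in ΔWAPL cells.

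In 9 of the 309 genes no SMC1 peak lay inside in any genotype. The 5 longest of these were CDH18 (1105 kb), SNTG1 (887 kb), TMEM132D (832 kb), GALNT17 (581 kb) and SUPT3H (569 kb). No gene lacked CTCF in all 4 lists.

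Genes were also grouped by the function of their products. Over all 309 genes, 84.5% had more SMC1 peaks in ΔWAPL than in wild-type cells and 57.0% had fewer in ΔSCC4, and the shares in the lists are to be read against these. Cell adhesion and guidance genes of neurons (48 genes, the longest being CNTNAP2, CTNNA3, PCDH15 and ROBO2) had the lowest wild-type density of the lists, with 2.79 SMC1 peaks per Mb and 5.50, 2.07 and 4.74 in ΔWAPL, ΔSCC4 and the double mutant. Of the 48, 42 had more SMC1 peaks in ΔWAPL than in wild-type cells (87.5%) and 0 had fewer, and 24 had fewer in ΔSCC4 (50.0%) and 6 more. Ion channels and neurotransmitter receptors (20 genes, among them DPP10 with 3, 5, 3 and 6 peaks) had 3.86, 6.35, 2.43 and 6.11 per Mb. More peaks in ΔWAPL were seen in 16 of them (80.0%) and fewer in 0, and ΔSCC4 had fewer in 13 (65.0%) and more in 3.

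Scaffolds, kinases, phosphatases and signalling enzymes (30 genes, among them PTPRD, DLG2 and the phosphodiesterase gene PDE4D with 2, 9, 4 and 14 peaks) had 3.89, 6.97, 2.54 and 6.32 per Mb. In 26 the number was higher in ΔWAPL (86.7%) and in 0 lower, and in ΔSCC4 it was lower in 17 (56.7%) and higher in 2. Transcription and RNA-binding factors (23 genes, among them RBFOX1, RBMS3 with 2, 4, 1 and 4 peaks and RUNX1 with 3, 5, 3 and 4) had 3.93, 6.49, 2.32 and 5.50 per Mb. ΔWAPL had more in 17 (73.9%) and fewer in 1, and ΔSCC4 fewer in 16 (69.6%) and more in 2. Genes of common fragile sites (27 genes, some also in the lists above, among them DLG2, MACROD2 and LRP1B) had 2.84, 5.54, 1.64 and 5.39 per Mb. ΔWAPL had more in 26 (96.3%) and fewer in 0, and ΔSCC4 fewer in 19 (70.4%) and more in 1. The 172 genes in none of the lists had 3.92, 6.88, 2.54 and 6.14 per Mb, with more peaks in ΔWAPL in 83.7% and fewer in ΔSCC4 in 55.8%. The median difference between ΔWAPL and wild-type was 2 peaks per gene over all 309, and between 1.50 and 3 in the lists.

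The next question was where in the gene the sites lie, counted in 10 stretches of equal length from the gene start to its end. Both proteins were denser in the outer stretches than in the middle. In wild-type cells SMC1 had 4.12 peaks per Mb in the first stretch, 5.82 in the last, and 2.83 in the seventh and eighth, the lowest. ΔWAPL cells had 10.4 in the first stretch, 9.59 in the last and 4.93 in the seventh. CTCF had 11.4 per Mb in the first and 13.9 in the last stretch in wild-type cells and 13 and 15.3 in ΔWAPL cells, with lowest values of 8.81 and 9.67. The first stretch held 106 SMC1 peaks in wild-type cells, 11 of them without CTCF. In ΔWAPL cells it held 269, and 94 of these lacked CTCF.

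**Figure D4:**
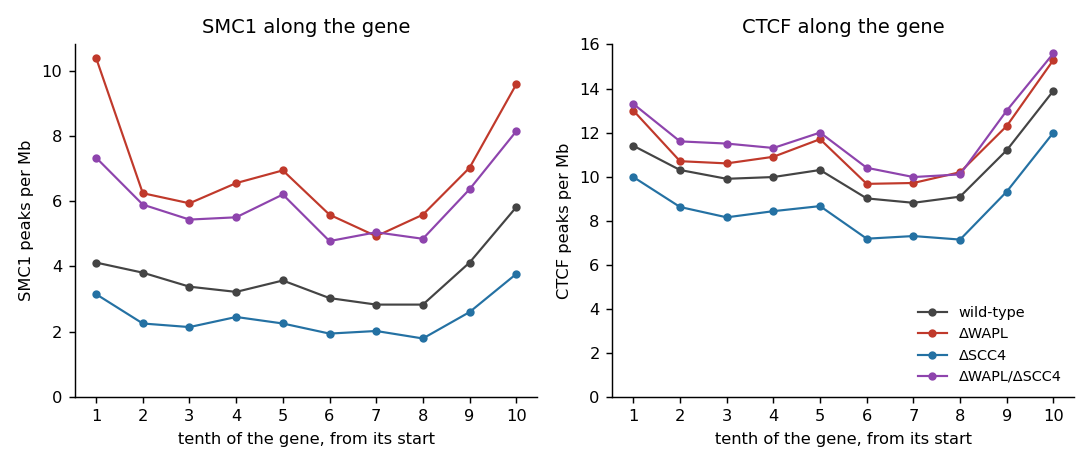
SMC1 (left) and CTCF (right) peaks per Mb in 10 equal stretches of the 309 genes, counted from the gene start in the direction of transcription, with 1 line per genotype and 1 library per line. Each line is highest in the first or last stretch, and the ΔWAPL SMC1 line stands at 10.4 in the first stretch against 4.12 for wild-type.

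The direction of CTCF motifs also differed along the gene. Of wild-type CTCF peaks with a match in the first 20% of a gene, 204 of 363 had the motif on the gene's own strand (56.2%, 51.1 to 61.2), and in the last 20% 175 of 389 (45.0%, 40.1 to 50.0). In the middle it was 51.2% (47.8 to 54.5). Matches of the same genes that lay in no CTCF peak of any genotype did not show this, with 48.6% (46.3 to 50.8) in the first and 49.2% (47.1 to 51.3) in the last 20% of the gene. In the other genotypes the share was 56.4% to 57.1% in the first and 47.1% to 47.2% in the last 20%, and each of these last 3 intervals held 50%. The CTCF sites of the 4 genotypes are largely the same, so these shares are not independent.

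At gene starts, within 5 kb on either side, SMC1 density was far higher than inside. The starts held 74 SMC1 peaks in wild-type cells, 231 in ΔWAPL, 59 in ΔSCC4 cells and 133 in the double mutant. That was 24.0, 75.0, 19.1 and 43.2 peaks per Mb. The ratio of ΔWAPL to wild-type was 3.12 (2.40 to 4.05), above that inside the genes. From ΔWAPL to the double mutant it was 0.576 (0.465 to 0.712), below that inside.

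A peak at the start was found in 71 of the 309 genes in wild-type cells (23.0%, 18.6 to 28.0), 178 in ΔWAPL (57.6%, 52.0 to 63.0), 59 in ΔSCC4 cells (19.1%, 15.1 to 23.8) and 120 in the double mutant (38.8%, 33.6 to 44.4). Over all protein-coding genes these shares were 20.5%, 46.9%, 13.9% and 27.8%, and for genes of 200 to 500 kb they were 27.7%, 58.1%, 20.5% and 42.1%. Of 238 starts without a peak in wild-type cells, 109 had one in ΔWAPL (45.8%). The background for this change was 34.2% over all protein-coding genes, and it was 42.9% for genes of 200 to 500 kb. Of 71 starts with a peak in wild-type cells, 24 had none in ΔSCC4 cells (33.8%, background 41.4%). Of 178 with a peak in ΔWAPL cells, 63 had none in the double mutant (35.4%, background 44.6%), and of 250 without one in ΔSCC4, 66 had one in the double mutant (26.4%, background 17.4%). For genes of 200 to 500 kb these 3 shares were 37.7%, 30.8% and 28.7%. Except in wild-type cells, the interval for very long genes lay above the share of all genes with a start peak, and in each genotype it held the share of genes of 200 to 500 kb. In lists of equal length the order was another, with a start peak in 11.7%, 19.1%, 19.1% and 13.9% of the 309 genes.

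**Figure D5:**
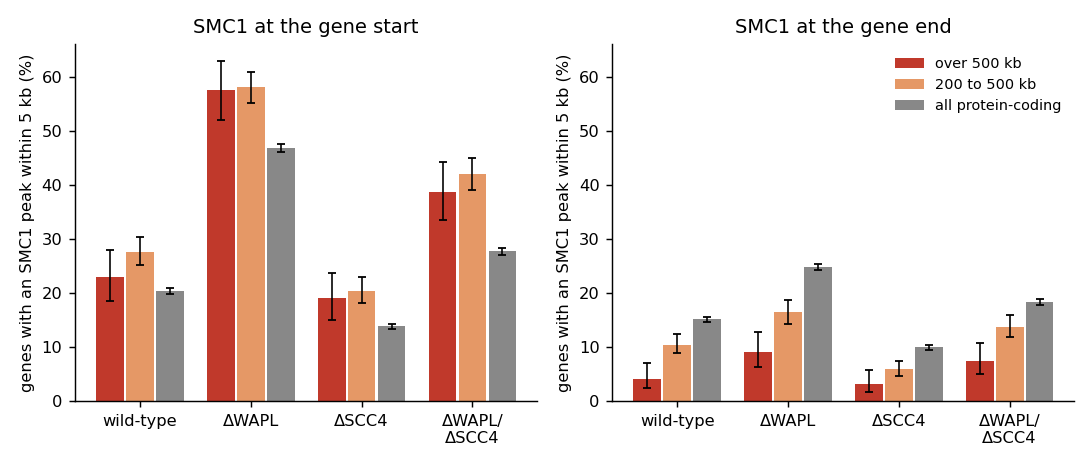
Share of genes with an SMC1 peak within 5 kb of the gene start (left) or end (right) in the 4 genotypes, for the 309 genes over 500 kb (red), the 1129 genes of 200 to 500 kb (orange) and all 19229 protein-coding genes (grey), with 95% Wilson intervals. At starts the red bars stand above the grey ones in ΔWAPL (57.6% against 46.9%) and ΔWAPL/ΔSCC4 cells (38.8% against 27.8%), and at ends they stand below in every genotype.

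SMC1 peaks at starts lacked CTCF more often than those inside. Of the 231 in ΔWAPL cells 118 overlapped no CTCF peak, against 20 of 74 in wild-type cells, 15 of 59 in ΔSCC4 and 40 of 133 in the double mutant. Of the 109 genes with a start peak in ΔWAPL and not in wild-type cells, 52 had no CTCF peak at the start in ΔWAPL (47.7%). This share was no higher than elsewhere, at 52.6% for genes of 200 to 500 kb and 54.8% for all protein-coding genes. The number without CTCF in the double mutant was 0.339 times that of ΔWAPL (0.237 to 0.484), and that with CTCF was 0.823 times (0.626 to 1.08). In ΔWAPL cells 101 of the 118 peaks without CTCF had their summit within 1 kb of the start (85.6%), against 64 of the 113 with CTCF (56.6%). Their median fold enrichment was 4.37, against 6.28 for those with CTCF.

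Starts with SMC1 were rich in CpG dinucleotides. Within 500 bp on either side of the start, the median ratio of observed to expected CpG was 0.790 for the 69 genes with SMC1 in both wild-type and ΔWAPL cells, 0.789 for the 109 with SMC1 in ΔWAPL and not wild-type cells, and 0.437 for the 129 with SMC1 in neither. A ratio of at least 0.6 was found in 85.5%, 84.4% and 37.2% of them. This was 64.7% for all 309 starts and 60.2% for all protein-coding genes. Whether these genes were transcribed was not measured here.

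Named genes show both kinds of start. Of the 32 genes named by rule for their length, peak numbers or CTCF density, 9 had an SMC1 peak at the start in ΔWAPL and not in wild-type cells. In 6 of the 9, a share not counted over all genes, no CTCF peak of any genotype lay at that site. These included CNTNAP2 (SMC1 6.67-fold in ΔWAPL and 4.93-fold in the double mutant), DLG2 (4.08-fold in ΔWAPL only), LRP1B (5.68 and 5.12), CTNNA3 (7.02 and 4.15) and ZBTB20 (6.79-fold in ΔWAPL only). The others, PTPRD, CSMD1 and SYN3, had CTCF at the site in all 4 genotypes. At SYN3 CTCF was 20.2- to 22.1-fold throughout, while SMC1 was 6.66-fold in ΔWAPL cells, 3.87-fold in the double mutant and not called in the other genotypes. RBFOX1 had SMC1 at its start in every genotype (8.15, 11.6, 7.52 and 9.63), together with CTCF.

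Among the peaks open to naming, the strongest start peak of ΔWAPL cells without a wild-type partner was that of RYR2, the ryanodine receptor of heart muscle. Its summit lay 129 bp before the start, with SMC1 at 12-fold in ΔWAPL cells, 9.81-fold in ΔSCC4 and 8.72-fold in the double mutant, and CTCF between 13.3- and 17.5-fold in all 4.

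Gene ends had far fewer cohesin peaks than starts. SMC1 peaks within 5 kb of the end numbered 13, 30, 11 and 24 in wild-type cells, ΔWAPL, ΔSCC4 and the double mutant. A peak was found at the end of 4.21% of the genes in wild-type cells (2.47 to 7.06), 9.06% in ΔWAPL (6.34 to 12.8), 3.24% in ΔSCC4 cells (1.77 to 5.85) and 7.44% in the double mutant (5.01 to 10.9). For all protein-coding genes these shares were 15.2%, 24.9%, 9.98% and 18.4%, and for genes of 200 to 500 kb they were 10.5%, 16.5%, 5.93% and 13.8%. Of 296 ends without a peak in wild-type cells, 15 had one in ΔWAPL cells (5.07%, against a background of 12.1%), and of 13 with a peak in wild-type cells 5 had none in ΔSCC4 cells (38.5%, background 40.0%). From ΔWAPL to the double mutant the peak was gone at 7 of 28 ends (25.0%, background 30.4%). From ΔSCC4 to the double mutant one was added at 14 of 299 (4.68%, background 9.82%). In each genotype the interval for very long genes lay below the share of all genes and below that of genes of 200 to 500 kb.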

How the data were processed

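Single-end ChIP-seq reads of SMC1, CTCF and IgG were, per the study's methods, mapped to hg19 with Bowtie2, and peaks were called in each library with MACS2 (version 2.1.1 in the submitters' processing notes), with IgG named as control. The calling threshold is not given in the sources used here. In the SMC1 and CTCF lists the lowest −log10 q lay between 1.31 and 1.52. The deposited fold enrichment is a ratio of summit pileup to local background; whether that background came from IgG or from the ChIP library itself could not be settled, and reads per kb rest on it. The deposited −log10 p and −log10 q values are the caller's own. Whole-number pileups and backgrounds were recovered from fold enrichment and −log10 p to within 0.002, and the lowest background over the shortest interval gave reads per kb. All 12 lists were used, IgG only to name or remove peaks.

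Genes were taken from GENCODE version 44 as mapped to GRCh37, whose chromosomes hold every peak (0 lay beyond an end). A peak belonged to the zone that held its summit. Inside meant at least 5 kb from both ends, and shared peaks overlapped by at least 1 bp. Samples were grouped by title, with 1 library per group, so no test was run. Intervals (95%) cover counting error only. Calls were a 2-fold difference among genes with 5 peaks, or presence against absence. The CTCF matrix was learned on odd-numbered chromosomes from the 1000 highest wild-type CTCF peaks and matched 65.9% of summit windows and 1.00% of flanks on even ones. Named genes were the 10 longest, the 10 with the largest SMC1 difference of ΔWAPL over wild-type, the 5 of wild-type over ΔSCC4, the 5 highest and lowest in CTCF per Mb, and up to 5 without SMC1. Some genes chosen by these rules are not reported here. The genes, lists and rules were chosen with earlier results of these data known. The counters, the recovery and the motif search were tested on simulated data. The 15 alternatives changed the peak threshold, IgG removal, list length, depth, gene length, summit or interval, chromosomes, window, overlap or start. Python 3.11.15, pandas 2.3.3, scipy 1.17.1, pysam 0.24.0 and samtools 1.23.1 were used.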

Additional observations from a re-analysis of the deposited data

Results flagged for a closer look

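Some steps went opposite ways in the 2 backgrounds, and these differences were not tested, since each group is 1 library. CTCF peak numbers inside the very long genes were 0.835 times as high after SCC4 deletion in wild-type cells and 1.04 times after SCC4 deletion in ΔWAPL cells, where the interval (0.989 to 1.10) holds 1. The second ratio was below 1, as in wild-type cells, at −log10 q of at least 5 (0.974) and of at least 10 (0.988), at a fold enrichment of at least 5 (0.984) and in lists of equal length (0.989), each with an interval that holds 1. CTNNA2 had 1 SMC1 peak more in ΔSCC4 than in wild-type cells, and the difference of ΔWAPL/ΔSCC4 minus ΔWAPL was -10. For ZFHX3 the same differences were 1 and -2. CNTNAP2 had 4 fewer SMC1 peaks in ΔSCC4 than in wild-type cells and 1 more in ΔWAPL/ΔSCC4 than in ΔWAPL. CACNA2D3 had 8 fewer in the first and 1 more in the second. ZBTB20 had 1 SMC1 peak fewer in ΔWAPL than in wild-type cells and 4 more in ΔWAPL/ΔSCC4 than in ΔSCC4. Over all 309 genes the SCC4 step went opposite ways in 48 and the WAPL step in 5. The same was not counted over all protein-coding genes, so these numbers cannot be read as particular to very long genes.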

How the results depend on the processing

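No paired analysis was possible because each group is 1 library. The 22 summed values were recomputed under 15 alternatives, 248 values in all. Of these 142 stayed within the counting interval of the value reported, 103 left it, and 3 turned the direction of a ratio whose interval excluded 1.

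These 3 came from lists of equal length, where the SMC1 number inside the genes was 0.952 (wild-type to ΔWAPL), 1.02 (wild-type to ΔSCC4) and 1.17 times (ΔWAPL to ΔWAPL/ΔSCC4). By construction, these lists hold no difference in total number. There ΔSCC4 to ΔWAPL/ΔSCC4 was 1.09, wild-type SMC1 density 2.30 per Mb, CTCF density 8.76, the CTCF ratios of the first 3 steps 1.01, 0.974 and 1.03, the share of SMC1 peaks at CTCF 98.1%, 98.4%, 97.3% and 99.7% in the 4 genotypes, the share of starts with SMC1 11.7%, 19.1%, 19.1% and 13.9%, and that of ends 3.88% in ΔWAPL and 4.53% in ΔWAPL/ΔSCC4. The CTCF ratio from ΔWAPL to ΔWAPL/ΔSCC4 (1.04, interval holding 1) fell to 0.989 there and below 1 under the 3 stricter thresholds. Values below are in the order wild-type, ΔWAPL, ΔSCC4, ΔWAPL/ΔSCC4 where 4 are given.

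At −log10 q of at least 5, SMC1 density was 3.0 and CTCF density 9.52 per Mb, CTCF ratios from ΔSCC4 and from ΔWAPL to ΔWAPL/ΔSCC4 were 1.27 and 0.974, SMC1 at CTCF 98.3%, 94.8%, 98.8% and 98.4%, and starts 15.9%, 47.9%, 12.9% and 30.4%. At −log10 q of at least 10, densities were 1.50 and 7.59, SMC1 ratios 2.33 (to ΔWAPL), 0.550 (to ΔSCC4), 3.40 (from ΔSCC4) and 0.803 (from ΔWAPL), CTCF ratios 1.28 and 0.988, SMC1 at CTCF 99.2%, 96.8%, 99.5% and 99.3%, starts 6.15%, 28.2%, 5.18% and 16.8%, and ends 2.27%, 4.85%, 1.62% and 4.85%. At a fold enrichment of at least 5, densities were 2.89 and 9.53, CTCF ratios 1.27 and 0.984, SMC1 at CTCF 98.5%, 96.0%, 98.7% and 98.9%, and starts 12.6%, 39.2%, 11.3% and 25.9%. Scaling to the shallowest library also left out peaks below a fixed p-value limit, so its values mix depth with a stricter cut. Densities were 2.66 and 9.16 there. SMC1 ratios were 0.565 (to ΔSCC4), 3.29 (from ΔSCC4) and 0.981 (from ΔWAPL), and CTCF ratios 1.04 (to ΔWAPL) and 1.27 (from ΔSCC4). SMC1 at CTCF was 98.2%, 95.1%, 99.5% and 98.4%, and starts were 13.3%, 42.1%, 12.6% and 29.8%.

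For genes over 750 kb, densities were 3.07 and 9.51 and ends 0.709% in ΔSCC4 and 4.96% in ΔWAPL/ΔSCC4. For genes over 1000 kb, densities were 2.50 and 8.75, SMC1 ratios 2.13 (to ΔWAPL) and 0.741 (to ΔSCC4), starts 25.4% in ΔSCC4, and ends 1.49% and 4.48%. With a window of 1 kb, starts were 13.6%, 47.6%, 12% and 27.5% and ends 0.647%, 2.27%, 0.971% and 1.62%. With 25 kb, starts were 36.9%, 68.3%, 29.4% and 53.1% and ends 27.8%, 40.1%, 23.6% and 36.2%. With the start of any transcript of the gene, starts were 48.2%, 80.3%, 35.9% and 66.0%. The causes were not tested.

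SMC1 density inside relative to the rest was recomputed under 6 of these settings, chosen after seeing the data, and was highest in ΔWAPL/ΔSCC4 cells in each (0.536 to 0.613), with an interval that overlapped another genotype’s in 3 of the 6. Numbers of peaks depend on depth and threshold, and a gene without a peak may hold weaker binding. Intervals leave out the variation between cultures, clones and precipitations.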
